A study of Mus musculus with 12 samples.

Results

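The 7 genes of the Fos and Jun families (Fos, Fosb, Fosl1, Fosl2, Jun, Junb and Jund) encode the classical subunits of the transcription factor AP-1, and their transcript levels were examined in acute slices of mouse auditory cortex. They were taken by gene symbol from the 20989 gene loci measured in each library, and all 7 were among the 12032 loci that averaged 1 FPKM or more over the libraries and were tested. Coronal slices of 350 µm were cut from 6 C57BL/6J mice at 4 weeks of age, without any transgene, and each slice was split along the midline, so that each mouse gave a control library and a cocktail library from poly-A RNA of the dissected auditory cortex. After recovery for 15 min in choline-based buffer and 45 min in artificial cerebrospinal fluid (aCSF), the treatment lasted 1 h, with plain aCSF as the control and cocktail aCSF for the opposite side, and per the study's methods a last rest of 1 h in aCSF followed for both. The cocktail held bicuculline methiodide, an antagonist of GABA-A receptors, at 50 µM, the acetylcholine analogue carbamoylcholine at 50 µM, norepinephrine, dopamine and serotonin at 100 µM each, and ascorbic acid at 40 µM. All components were given together, so the effect of a single one cannot be told apart from that of the others, and slicing and incubation were shared by both groups. Levels are given as FPKM, in which the fragments of a gene are scaled to transcript length and to the library's total over protein coding genes. This allows levels to be set side by side between genes. Between libraries FPKM also carries a bias correction that can differ, so differences are given on read numbers as well.

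AP-1 is a dimer of basic leucine zipper proteins. Jun proteins can pair with each other or with a Fos protein, whereas Fos proteins need a Jun partner to bind DNA stably. In neurons, Fos, Fosb and Junb are immediate-early genes: calcium entry and growth factor signals activate kinases of the ERK, CaMK and RSK families, which act on SRF, ternary complex factors and CREB already present at the promoters, so that transcription starts without new protein synthesis. The transcripts are short lived because AU-rich elements in their ends recruit decay factors. Jund is the member known for a steady level in most cells, and Fosl1 (Fra-1) and Fosl2 (Fra-2) encode Fos proteins without the strong activation domain of Fos. Fos protein and Fos transcript are standard markers of recently active neurons.

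SE is the standard error throughout. In control slices the 7 genes spanned a wide range of levels, and the order of the members was the same in all 6 control libraries: Fos, Jun, Junb, Fosb, Jund, Fosl2, Fosl1. Fos, the founding member of its family, had 230.1 FPKM in the lowest control library, 332 at the median and 401 in the highest, and with a mean of 322 it ranked at place 89 of the 20989 loci. Jun, the partner gene that gave its family its name, had a mean of 242 ± 34.7 FPKM (SD, n = 6) in control and stood at place 141. Junb followed at 190 ± 28.0 FPKM and Fosb at 165 ± 22.9 FPKM (SD, n = 6 each). These 4 genes were therefore among the 254 highest loci in control slices, which had been cut and incubated but received no cocktail. The ranges of neighbours among these 4 overlapped between libraries, although within each library the higher gene of each neighbouring pair was the higher one in 6 of 6. Jund had 83.4 ± 16.4 FPKM, Fosl2 27.5 ± 3.37 FPKM and Fosl1 3.69 ± 0.842 FPKM (SD, n = 6 each), and the ranges of these genes did not overlap with each other or with those of the genes above them.

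The promoters of the 4 members with the highest control levels are shown because 3 of them, those of Fos, Fosb and Junb, hold a half-site of the cAMP response element (CRE), the element bound by CREB. Each run is the 150 bases before the RefSeq start of the gene on GRCm38.p6, the assembly of mm10, 5′ to 3′ on the strand of the gene, with matches to the motifs searched in capitals. The table used holds 6 of the 7 members.
Fos, chr12:85473740-85473889, plus strand: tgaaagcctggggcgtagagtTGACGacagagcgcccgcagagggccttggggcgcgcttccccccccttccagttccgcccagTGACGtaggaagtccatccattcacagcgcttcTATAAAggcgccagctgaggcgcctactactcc
Fosb, chr7:19310046-19310195, minus strand: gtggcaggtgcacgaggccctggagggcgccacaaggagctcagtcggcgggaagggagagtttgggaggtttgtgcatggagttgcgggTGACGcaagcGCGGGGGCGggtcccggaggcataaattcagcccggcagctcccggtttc
Junb, chr8:84978749-84978898, minus strand: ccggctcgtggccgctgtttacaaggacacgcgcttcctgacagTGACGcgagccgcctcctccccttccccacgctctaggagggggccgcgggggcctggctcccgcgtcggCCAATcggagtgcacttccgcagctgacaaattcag
Jun, chr4:95052223-95052372, minus strand: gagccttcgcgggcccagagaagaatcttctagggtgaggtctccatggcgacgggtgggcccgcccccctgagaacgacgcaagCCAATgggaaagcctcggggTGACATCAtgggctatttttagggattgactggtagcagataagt

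The motifs were searched on both strands in the same 150 bases of 32809 promoters. The CRE half-site TGACG was found in Fos at bases -129 to -125 and -66 to -62 from the start, in Fosb at -60 to -56 and in Junb at -106 to -102, that is in 3 of the 6 members with a window, against 13.3% of all promoters. The full CRE TGACGTCA, which contains the half-site on either strand, was found in 0 of the 6 members and in 1.36% of all promoters. Jun holds TGACATCA at -45 to -38, a variant bound by Jun and ATF proteins, as do 2.32% of all promoters. The EGR motif GCGGGGGCG was found in Fosb at -50 to -42 and in Fosl2 at -79 to -71 (2 of 6 members, 2.1% of all promoters). The TATA box TATAAA was found in Fos only (7.58% of all promoters), and CCAAT in Jun and Junb (24.5% of all promoters). The AP-1 site TGANTCA (4.25%) and the CArG box of SRF (0.917%) were in none of these windows. Bases further upstream than these 150 were not searched, so a site there would have been missed. The window of Jund and that of Fosl2 lie before starts that differ by 1210 and 671 bases from those of GENCODE M21. A match is a run of letters and was not tested for binding.

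In cocktail-treated slices 6 of the 7 members rose, namely Fos, Junb, Fosb, Fosl2, Jun and Jund in order of size, and Fosl1 did not pass the test. Called here means an adjusted p under 0.05 from limma on log2(FPKM + 1) with the mouse as a block, adjusted over all loci tested, and 1.22% of the loci tested were called higher, 0.274% lower and 1.5% in either direction. The same 6 genes were higher in the cocktail hemisphere of 6 of 6 mice, against 3.64% of all loci tested. For 5 of them (Fos, Fosb, Fosl2, Jun and Junb) every cocktail library lay above every control library, as for 0.715% of all loci tested. The median log2 fold change of all loci was 0.01. In bulk tissue, a larger number of cells that carry a transcript and more transcript per cell cannot be told apart, here as in all that follows.

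**Figure D1:**
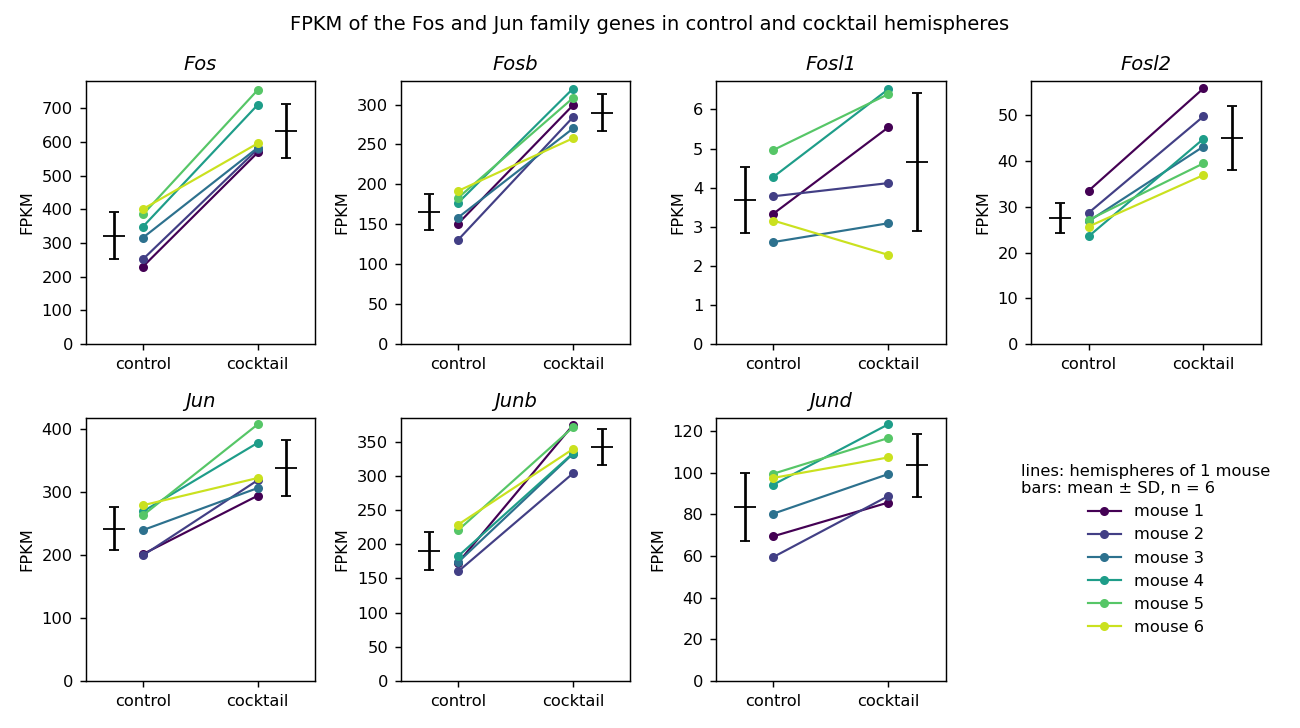
FPKM (y axis, linear from 0, its own scale in each panel) of the 7 genes in control and cocktail hemispheres (x axis). Each line joins the hemispheres of 1 mouse and the bars beside the points are the mean and SD of 6 libraries; the lines rise in all mice for 6 genes, while Fosl1 falls from 3.16 to 2.28 FPKM in mouse 6.

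Read numbers were worked back from the interval that accompanies each FPKM, and the libraries held 10601067 to 19768881 such reads in control and 13544297 to 17643462 in cocktail-treated slices. Markers of cortical excitatory neurons summed to 792 to 877 FPKM in control and 765 to 853 in the cocktail, and markers of astrocytes and microglia were also present in all libraries. The sum was higher in the cocktail hemisphere of 5 of 6 mice for inhibitory neurons (479.8 to 540.2 FPKM in control, 511 to 557 in the cocktail), oligodendrocytes (1846 to 2406 and 2149 to 2487 FPKM) and endothelial cells (39.9 to 47.4 and 40.9 to 51.6 FPKM), with overlapping ranges, and their part in the AP-1 results was not tested. Of the 41 marker genes tested, 0 were called with limma and 0 with voom, limma's fit for counts run on the recovered reads, with 1 and 5 at an unadjusted p under 0.05. Of all 12032 loci tested, 968 with limma and 1343 with voom had an unadjusted p under 0.05. Summed markers of choroid plexus stayed at or below 1.83 FPKM and those of blood at or below 2.80 FPKM, while markers of striatum, the neighbouring region, summed to between 44.4 and 68.9 FPKM.

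Among the Fos family, Fos had the largest difference of all members. It lies on the plus strand of chromosome 12 of mm10 (85473901 to 85477270) and reached 568 FPKM in the lowest cocktail library, 589 at the median and 754 in the highest. The lowest cocktail value was thus above the highest control value of 401. On the log2 scale the fitted difference was 0.99 (SE 0.08, limma adjusted p = 2.92e-05), and the ratio of the mean FPKM was 1.96. The within-mouse differences, on the log2 scale, lay between 0.57 in mouse 6 and 1.301 in mouse 1.

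Fosb encodes the full-length FosB protein and, by splicing, the truncated and more stable ΔFosB that accumulates after repeated stimulation. The files give 1 value for the locus (chromosome 7, 19302696 to 19310045, minus strand), so these forms were not separated. Its FPKM was 131 at the lowest, 168 at the median and 192 at the highest in control, and 258, 292 and 320.0 in the cocktail libraries. All cocktail values were above all control values. The fitted difference was 0.81 (log2, SE 0.07, limma adjusted p = 8.6e-05), with within-mouse differences from 0.42 in mouse 6 to 1.12 in mouse 2.

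Fosl2, on chromosome 5 (32136472 to 32157839, plus strand), rested on 1584 to 6006 reads per library. It had 23.5 FPKM at the lowest, 27.0 at the median and 33.5 at the highest in control libraries and 36.9, 44.0 and 55.8 FPKM in cocktail libraries. The groups did not overlap. Unlike for Fos and Jun, the highest control and cocktail values both came from mouse 1. The fitted difference was 0.68 (log2, SE 0.06, limma adjusted p = 4.23e-05).

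Fosl1, on chromosome 19 (5447698 to 5455938, plus strand), was the least abundant member, with 60 to 176 reads per library behind its values. Its FPKM was 2.61 at the lowest, 3.56 at the median and 4.96 at the highest in control, and 2.28, 4.83 and 6.52 in the cocktail libraries, so the groups overlapped. The value was higher in the cocktail hemisphere in 5 of 6 mice. The fitted difference was 0.23 (log2, SE 0.10, limma adjusted p = 0.62). Its unadjusted limma p was 0.0498, and 968 of all 12032 loci tested had one under 0.05. Flipping the signs of the 6 paired differences in an exact two-sided permutation test gave p = 0.188, also unadjusted. In GENCODE M21, 57.2% of the exonic bases of Fosl1 are shared with exons of Ccdc85b on the opposite strand. The reads are described as strand specific, but the strand setting used for FPKM is not given in the sources used here. Ccdc85b itself had a mean of 14.7 FPKM in control and 14.1 FPKM in the cocktail.

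Among the Jun family, Junb had the largest difference. It lies on the minus strand of chromosome 8 (84976909 to 84978748) and encodes a Jun protein that is strongly induced but a weaker activator than Jun on many promoters. Its FPKM was 160.1 at the lowest, 178 at the median and 229 at the highest in control and 304, 336 and 374 in cocktail libraries. The groups did not overlap. Its fitted difference was 0.86 (log2, SE 0.06), with the smallest adjusted p of the 7 members (1.75e-05 from limma), and the within-mouse differences ran from 0.57 to 1.11.

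Jun, on chromosome 4 (95049036 to 95052222, minus strand), had 199 FPKM at the lowest, 251 at the median and 279 at the highest in control libraries and 294, 320.5 and 407 FPKM in cocktail libraries. The groups did not overlap here either, but the gap between them was narrower than for Fos or Junb. The fitted difference was 0.48 (log2, SE 0.06, limma adjusted p = 0.00109). Of its exonic bases, 7.28% are shared with the antisense transcript Junos.

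Jund, the third Jun gene, on chromosome 8 (70697739 to 70700616, plus strand), had 59.5 FPKM at the lowest, 87.2 at the median and 99.4 at the highest in control, and 85.6, 103 and 123 in the cocktail libraries. These groups overlapped, although each cocktail hemisphere was above the control hemisphere of the same mouse. The fitted difference was 0.32 (log2, SE 0.06, limma adjusted p = 0.0107). Jund was the 1 called member whose call depended on the fit: the adjusted p was 0.672 without the mouse as a block, 0.252 with limma-voom on the reads recovered from the files, 0.0523 without mouse 3 and 0.0638 without mouse 4. In GENCODE M21, 52.6% of its exonic bases are shared with the antisense gene Gm11175, and the gene starts 1210 bases further downstream than in the files. For each of the 6 called members, the same exact permutation test over 6 mice gave p = 0.03125, the smallest that 6 pairs allow.

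The sizes of these differences on log2(FPKM + 1) were compared between members within each mouse. This removes a factor that scales a whole library, though not fully for a weakly expressed gene such as Fosl1, because of the added 1. A bias correction that differs between genes is not removed. All 21 pairs of members were examined with that exact permutation test and adjusted over the 21 pairs by the Benjamini-Hochberg method. Of these, 14 pairs passed at an adjusted p of 0.0469, each with the same direction in 6 of 6 mice. All 14 had the smallest p that 6 pairs allow (0.03125). Their shared adjusted p depends on how many pairs reach that floor, so they pass or fail together. The rise of Fos was larger than that of Fosb by 0.18 ± 0.08 (log2, SD over 6 mice), than that of Fosl2 by 0.31 ± 0.20, than that of Jun by 0.51 ± 0.15 and than that of Jund by 0.67 ± 0.19. Junb rose more than Jun by 0.37 ± 0.18 and more than Jund by 0.54 ± 0.16, and Jun rose more than Jund by 0.16 ± 0.14. All 3 pairs within the Jun family therefore differed, in the order Junb, Jun, Jund. For Fos against Junb the difference was 0.13 ± 0.13, from -0.05 to 0.28 in single mice (exact permutation p = 0.0938, adjusted p = 0.116), and for Junb against Fosb it was 0.04 ± 0.14 (exact permutation p = 0.531). On recovered reads, a setting added after the data were seen, the difference of Fosb minus Junb was -0.06 ± 0.06 and that of Fosl2 minus Junb -0.14 ± 0.11, each below 0 in 6 of 6 mice, and both pairs then passed (exact permutation, adjusted p = 0.041). Fos, Junb and Fosb, the genes with the largest fitted differences, span both families. On the log2(FPKM + 1) scale the test did not pass for Fosb against Fosl2 (0.13 ± 0.17) or Fosl2 against Jun (0.20 ± 0.18). Junb against Fosl2 did not pass either (0.17 ± 0.15, exact permutation, adjusted p = 0.0875). Fosl1 was not separated from Jun (Jun larger by 0.26 ± 0.27, exact permutation, adjusted p = 0.146). Nor was it from Jund (0.09 ± 0.32, exact permutation, adjusted p = 0.525). Fos, Junb, Fosb and Fosl2 each rose more than Fosl1, among the 14 pairs that passed.

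**Figure D2:**
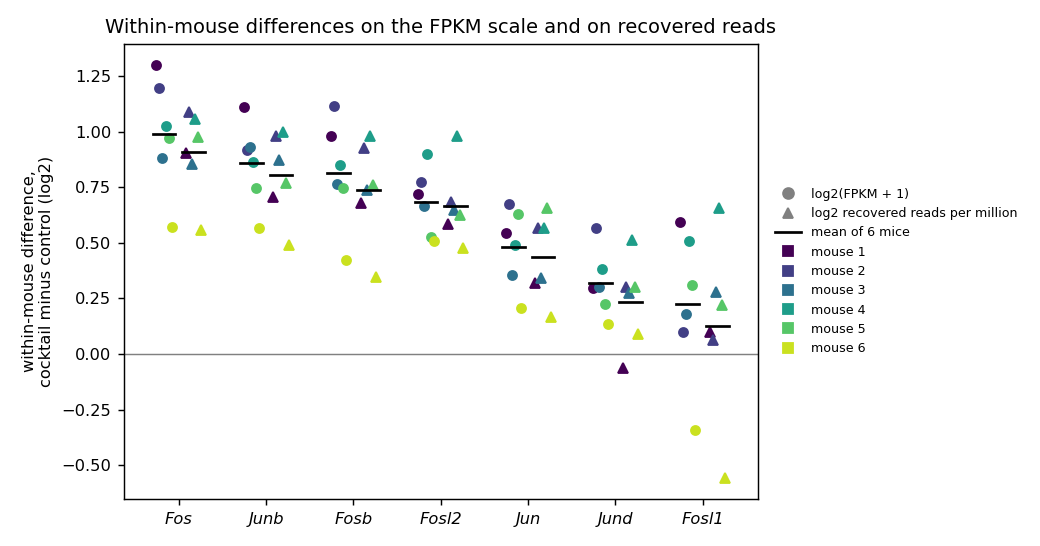
Within-mouse differences (y axis, log2, cocktail minus control) of the 7 genes (x axis, ordered by mean), with 1 color per mouse. Circles use log2(FPKM + 1) and triangles the log2 of RPM from recovered reads, and the black lines are means of 6 mice; mouse 6 has the lowest circle for every gene and the mean of Fos is 0.99 on circles and 0.91 on triangles.

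Mouse 6 had the smallest within-mouse difference for all 7 members on the log2(FPKM + 1) scale. The median difference over the 7 members was 0.42 in mouse 6 and between 0.63 and 0.85 in the other 5 mice. In that mouse the control hemisphere had the highest control level of Fos (401 FPKM), Fosb (192), Jun (279) and Junb (229), whereas its cocktail hemisphere had the lowest cocktail level of Fosb (258 FPKM), Fosl2 (36.9) and Fosl1 (2.28). The same held beyond AP-1, since mouse 6 had the smallest difference for 68.7% of the 147 loci called higher, against 18.2% of all loci tested. The control library of mouse 6 was also the shallowest of all, with 10601067 recovered reads. Its part in the result was not tested. Without mouse 6 the log2 fold change of Fos was 1.07 and that of Jun 0.54, and the adjusted p of Fosl1 was 0.0909 from limma, with a log2 fold change of 0.34.

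The levels of the 7 genes were also summed within each library to describe the makeup of the AP-1 transcripts. Together they amounted to a mean of 1033 FPKM in control (SD 164, n = 6) and of 1754 FPKM with the cocktail (SD 162, n = 6). In control slices the Fos family and the Jun family were nearly balanced, with a ratio of their summed FPKM of 1.00 ± 0.03 (SD, n = 6; range 0.942 to 1.03). In cocktail-treated slices the ratio was 1.24 ± 0.05 (SD, n = 6; range 1.16 to 1.296), higher than in the control hemisphere in 6 of 6 mice and without overlap. Fos went from 30.9% ± 2.24 to 35.9% ± 1.35 of the sum, Jun from 23.5% ± 0.847 to 19.2% ± 0.999 and Jund from 8.03% ± 0.500 to 5.88% ± 0.545 (SD, n = 6 each). The share of Fos was higher in the cocktail hemisphere in 6 of 6 mice, and the shares of Jun and Jund were lower in 6 of 6. Those of Fosb (16.1% and 16.6%) and Junb (18.4% and 19.6%) were higher in 4 of 6 mice. These shares are a description of transcripts, not of protein or dimers, and no test was made on them. In the cocktail libraries the order of the levels was less uniform than in control. Junb (342 ± 26.6 FPKM) and Jun (338 ± 44.7 FPKM; SD, n = 6 each) overlapped and each was the higher in 3 of 6 libraries. Jun was above Fosb in 5 of 6 libraries, with overlapping ranges, and in mouse 1 Fosb (299 FPKM) was above Jun (294 FPKM).

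**Figure D3:**
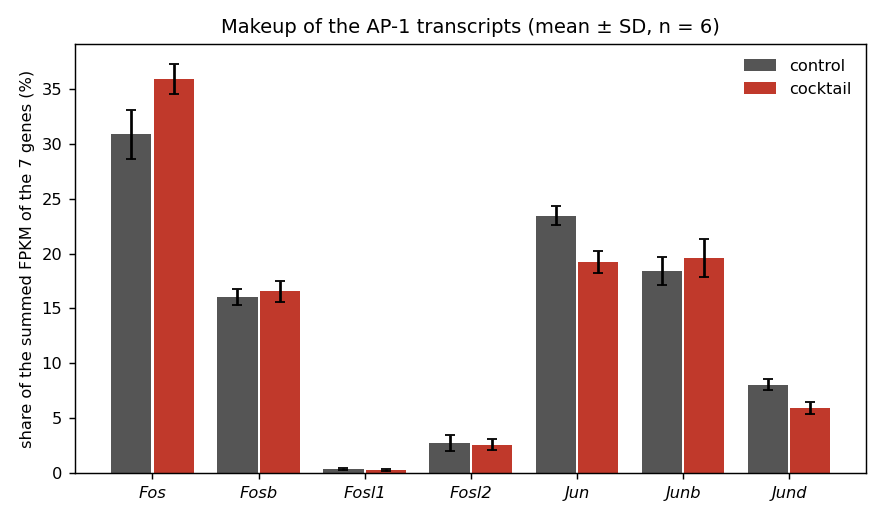
Share of each gene in the summed FPKM of the 7 genes (y axis, percent, from 0) in control and cocktail libraries, as bars for the mean with the SD of 6 libraries. The bar of Fos is taller in the cocktail (35.9% against 30.9%) and those of Jun and Jund are shorter.

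The spread between mice differed between the FPKM scale and the recovered reads. The recovered reads of each gene were divided by the library's total. On that scale the control level of Fos was 762 ± 103 RPM (reads scaled to the same total in every library; SD, n = 6), a coefficient of variation of 13.5% against 21.6% for its FPKM. That of Jun was 9.61% against 14.3%, and that of Jund 13.2% against 19.7%, while on reads it was larger for Fosl2 (19.2% against 12.2%), Junb (16.9% against 14.8%) and Fosl1 (26.8% against 22.8%). The mean within-mouse log2 differences were somewhat smaller on reads, 0.91 for Fos, 0.80 for Junb, 0.74 for Fosb, 0.67 for Fosl2, 0.44 for Jun, 0.24 for Jund and 0.13 for Fosl1. The order of the members was the same on both scales. The largest difference of Fos on FPKM, 1.301 in mouse 1, was 0.90 in that mouse on reads. On reads the largest was 1.09 in mouse 2. Jund was then higher in 5 of 6 mice, with a difference of -0.06 in mouse 1, whereas Fos, Fosb, Fosl2, Jun and Junb stayed higher in 6 of 6. The groups of Fosl2, which did not overlap on FPKM, overlapped on reads, with 227 RPM in the control hemisphere of mouse 1 and 208 RPM in the cocktail hemisphere of mouse 6. RPM values do not correct for transcript length, so they were compared only within a gene.

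The other genes of the pathway were described in 5 lists, of which 47 of the 53 genes listed were tested and 4 were called, all higher in the cocktail (Atf3, Zfp36, Zfp36l2 and Scg2). Of the 7 AP-1 partner genes, which encode other basic leucine zipper proteins that pair with Jun or Fos proteins, 4 were tested and 1 was called. Atf3, a stress-induced partner of Jun proteins, rose from a mean of 20.2 FPKM (SD 5.66, n = 6) to 37.8 FPKM (SD 8.31, n = 6), by 0.89 on the log2 scale (SE 0.10, limma adjusted p = 0.000532). It was also called in each of the 14 alternative fits. Atf2, Atf7 and Jdp2 had log2 fold changes between -0.09 and 0.05 and were not called, and the 3 Batf genes were below the level tested, at a mean of at most 0.797 FPKM in either group.

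Of the 14 kinase genes upstream of AP-1 (ERK, JNK, p38, their activating kinases and the RSK and MSK kinases), 0 were called with limma. At an unadjusted p under 0.05 there were 0 with limma and 1 with voom, which called 0 as well. Their log2 fold changes lay between -0.06 for Mapk9, which encodes the kinase JNK2, and 0.04, with a median of -0.01, beside 0.01 for all loci. Of the 11 genes for promoter-binding regulators, 0 were called with limma or with voom, with 3 and 4 at an unadjusted p under 0.05. For both lists the counts over all 12032 loci were 968 with limma and 1343 with voom. The largest difference in that list was that of Elk4, a ternary complex factor, at 0.18 (SE 0.06, limma adjusted p = 0.371), higher in 5 of 6 mice. Srf, named here after its values were seen, had 22.7 to 25.4 FPKM in control and 26.1 to 29.2 FPKM in the cocktail, without overlap and higher in 6 of 6 mice, and was not called (log2 difference 0.18, SE 0.05, limma adjusted p = 0.148).

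Of the 7 genes for proteins that bind AU-rich elements, 2 were called. Zfp36, which encodes the decay factor tristetraprolin, had 47.2 ± 12.4 FPKM in control and 55.8 ± 13.6 FPKM in the cocktail (SD, n = 6 each), a difference of 0.24 on the log2 scale (SE 0.04, limma adjusted p = 0.018), with the groups overlapping. Zfp36l2, of the same family, differed by 0.28 on the log2 scale (SE 0.06, limma adjusted p = 0.0346). Neither was called without the mouse as a block, with voom, without mouse 3 or without mouse 5. Zfp36 was also not called without mouse 4, with adjusted p over the alternative fits from 0.0171 to 0.999. Zfp36l2 was also not called with no filter on level or without mouse 1, mouse 2 or mouse 6. Its adjusted p over the alternative fits ran from 0.0229 to 0.242. Of the 14 genes described as AP-1 targets, 11 were tested and 1 was called. Scg2, which encodes a granin of dense-core vesicles, went from 75.4 ± 9.91 to 93.2 ± 5.21 FPKM (SD, n = 6 each; log2 fold change 0.31, adjusted p = 0.035 from limma), and its call was lost in 7 of 14 alternatives, those without mouse 2, 4, 5 or 6 among them (adjusted p from 0.0208 to 0.142). The median of the target list was 0.01, beside 0.01 for all loci.

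**Figure D4:**
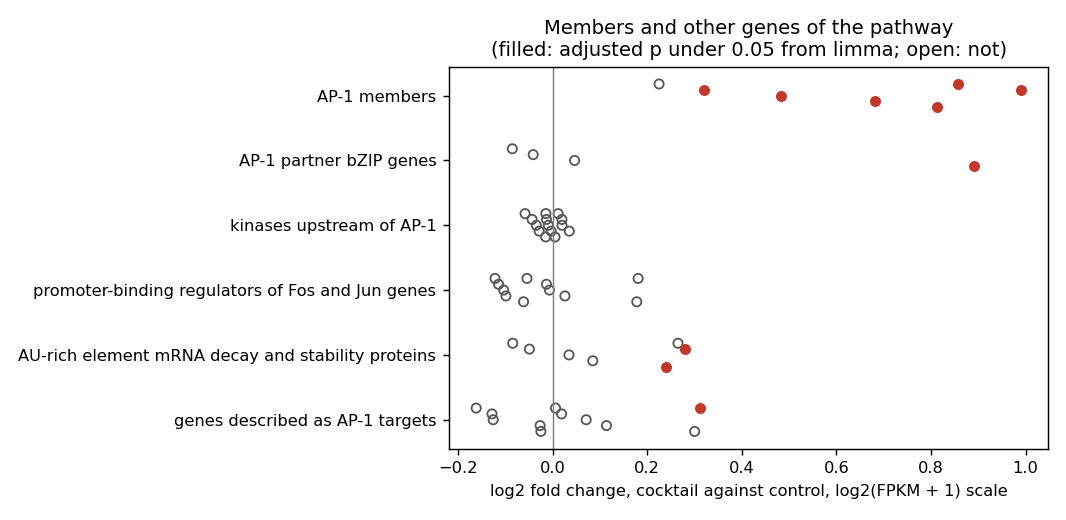
Log2 fold changes (x axis, cocktail against control, log2(FPKM + 1) scale) of the 7 AP-1 members and of the genes tested in 5 lists of the pathway (y axis). Filled points are genes called by limma and open points are not; 6 of 7 members and Atf3, Zfp36, Zfp36l2 and Scg2 are filled, and the 14 kinase genes lie between -0.06 and 0.04.

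For each member, the genes with the most similar pattern over the 12 libraries were found among 8522 loci that averaged 5 FPKM or more, by the Pearson correlation of log2(FPKM + 1). The libraries share mouse, treatment and bias correction, so these values are a description. Fos was closest to Ier2 (r = 0.99) and Plk2 (r = 0.98), Fosb to Egr4 (r = 0.98) and Arl4d (r = 0.98), and Junb to Npas4 (r = 0.97) and to Fosb (r = 0.97). Jun was closest to Ier2 and Ppp1r15a (r = 0.97 each), and Fosl2 to Nr4a3 (r = 0.97) and Egr1 (r = 0.93). The pattern of Jund was closest to that of Ctsl (r = 0.93) and Olfml3 (r = 0.92), which had log2 fold changes of 0.20 and 0.21, and that of Fosl1 to Stat3 (r = 0.93) and Cdh5 (r = 0.87). Among the members themselves, Fos and Fosb (r = 0.97) and Fosb and Junb (r = 0.97) were the closest pairs and Fosl2 and Jund (r = 0.26) the most distant.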

How the data were processed

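Reads of poly-A RNA from 6 control and 6 cocktail hemispheres were processed by the authors, who removed ribosomal RNA reads with BWA 0.6.1, aligned the rest to mm10 with TopHat 1.4.1 with 1 placement per read, and deposited FPKM values from Cufflinks 1.3.0 with bias correction, scaled to the fragments that fall on protein coding genes. Bias correction can change the FPKM that a given number of reads is worth between libraries. Their DESeq2 table (mean count, fold change, its error, test statistic, p-values, and mean and SD of FPKM per group) was not used. The members and the gene lists were chosen with earlier results of these data known.

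limma 3.58.1 (R 4.3.3) was run on log2(FPKM + 1) of loci averaging 1 FPKM or more, with terms for mouse and treatment, a variance trend and Benjamini-Hochberg adjusted p under 0.05 as the threshold; the added 1 makes the changes of weakly expressed genes look smaller. The upper limit of the interval around each FPKM was taken as 2 Poisson standard deviations above it, which gave the reads behind it. Of 36048 values under 20 reads, 83.4% were whole to within 0.05. Depth and precision stated from these reads cover counting error only. The hemispheres were paired by the numbers in the labels. Deviations from the group means correlated at 0.216 to 0.406 across genes within mice, against -0.42 to 0.445 (median -0.071) between mice. These ranges overlap, so they do not by themselves establish the pairing. No 2 libraries of a group were copies (chi-square per gene of at least 7.09). The control library of mouse 1 was the most distant from the other controls, at 27.53 to 36.96, against 7.09 to 15.8 among the others. The fit was tested on simulated data. Named were all members, every called gene of the lists or otherwise the gene with the largest difference, and the 2 genes most similar to each member. Motifs were searched in RefSeq promoters (GRCm38.p6), and exon overlaps taken from GENCODE M21. Plots used matplotlib 3.10.9 (Python 3.11.15).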

Additional observations from a re-analysis of the deposited data

How the results depend on the processing

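Across the 14 alternative fits (13 for Fosl1, which has no value at a mean FPKM of at least 5), all 7 members kept the direction of their difference. The log2 fold change stayed between 0.91 and 1.07 for Fos, 0.80 and 0.91 for Junb, 0.74 and 0.89 for Fosb, 0.64 and 0.72 for Fosl2, and 0.42 and 0.54 for Jun, and these 5 genes were called in each fit. Fosl1 was called in none, with adjusted p from 0.0909 to 0.999. Jund had a log2 fold change of 0.32 with no replicate block (adjusted p = 0.672) and 0.23 with voom on recovered reads (adjusted p = 0.252), and between 0.27 and 0.36 with each mouse left out, with adjusted p up to 0.0638. The replicate block changed no other call of a member, since 5 members were called without it and 6 with it.

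Over all loci, 180 were called, 88 without the block and 118 with voom on recovered reads, and leaving out each mouse gave 104 (without mouse 4) to 181 (without mouse 6). Of the 180, 147 were higher and 33 lower, and of the 131 called at a mean FPKM of at least 5, 124 were higher and 7 lower. Of the pathway genes, 4 were called, 1 without the block, 2 with no filter and 2 with voom, and 1 to 3 with each mouse left out. With no trend in the variance 3 were called, and with median-of-ratios scaling and with quantile normalization 5 each. The cause was not tested. Of the 21 pairs of members, 14 differed with a pseudocount of 1, of 0.1 and with none, and 16 differed on recovered reads (the 2 more being Junb against Fosb and against Fosl2), a setting chosen after the data were seen. With 5 mice the test of pairs cannot pass 0.05, so it was not repeated with mice left out. Fosl1 rested on 60 to 176 reads per library, and the part of depth in its missing call was not tested.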
